A study of Mus musculus with 9 samples.

Results

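The 9 germline genes described here were measured in mouse extra-embryonic endoderm (XEN) stem cells, a somatic line in which these genes are normally shut off. The genes were Dazl, Ddx4, Mael, Sycp1, Sycp3, Stag3, Slc25a31, Asz1 and Piwil2, chosen by name from a list of germline genes. All 9 were found among the 55401 genes of the count table. RNA-seq read counts came from 7 libraries in 3 groups. DXp cells carry the deletion on the paternal X chromosome (n = 2), DXp_DXm cells carry it on both X chromosomes (n = 2), and WT_EV cells are the wild type (n = 3). The genotype labels call the change an Xist deletion, and the series title places it upstream of Xist, the gene of the RNA that silences an X chromosome. All groups are female XEN cells from a cross of Mus musculus molossinus with Mus musculus, and total RNA was taken with Trizol in all of them. A further wild type, WT_clone (n = 2), was counted in a table of its own, which held only 2 of the 9 genes here. The design text gives 2 biological replicates per deletion, and the titles carry D1 for both DXp libraries and D3 for both DXp_DXm libraries. Where D1 and D3 are single lines, effects of the line and of the deletion cannot be told apart. The origin of the 3 WT_EV libraries in separate cultures is not stated, and the spread behind each p-value may therefore be technical.

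Germline genes of this kind act in the formation of eggs and sperm. In somatic cells they are kept silent by DNA methylation of CpG-dense promoters and by a repressor complex built around E2f6, Mga and Max, and some of them come on when either layer is lost. The piRNA pathway, in which PIWI proteins load small RNAs that silence transposons, and the synaptonemal complex, which holds paired chromosomes together in meiosis, supply most of the members.

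The promoters of 4 members are shown to let their CpG content be read, since the promoters of such genes that somatic cells methylate are CpG-dense. Dazl and Sycp3 are the members whose counts in every deletion library lay above those of every WT_EV library, and Sycp1 and Mael are members at or near 0 throughout. How many of all genes separate in this way was not counted. Each line gives the 250 bases before the annotated start, 5′ to 3′ on the gene's own strand, from RefSeq on GRCm38.p6, with every CpG in capitals. The Dazl promoter lies at chr17:50293621-50293870 on the minus strand and the Sycp3 promoter at chr10:88459337-88459586 on the plus strand. The Sycp1 promoter lies at chr3:102936101-102936350 on the minus strand and the Mael promoter at chr1:166238745-166238994 on the minus strand.
Dazl: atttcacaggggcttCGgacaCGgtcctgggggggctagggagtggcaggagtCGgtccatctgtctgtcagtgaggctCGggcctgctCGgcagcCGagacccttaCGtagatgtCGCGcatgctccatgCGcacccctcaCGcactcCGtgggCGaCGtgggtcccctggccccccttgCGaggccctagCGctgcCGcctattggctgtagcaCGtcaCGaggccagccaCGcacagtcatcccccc
Sycp3: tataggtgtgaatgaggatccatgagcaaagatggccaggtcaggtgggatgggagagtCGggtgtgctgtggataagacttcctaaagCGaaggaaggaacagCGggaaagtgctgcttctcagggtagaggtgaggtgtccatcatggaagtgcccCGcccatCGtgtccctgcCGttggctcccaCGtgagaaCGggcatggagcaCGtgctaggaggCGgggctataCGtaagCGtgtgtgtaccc
Sycp1: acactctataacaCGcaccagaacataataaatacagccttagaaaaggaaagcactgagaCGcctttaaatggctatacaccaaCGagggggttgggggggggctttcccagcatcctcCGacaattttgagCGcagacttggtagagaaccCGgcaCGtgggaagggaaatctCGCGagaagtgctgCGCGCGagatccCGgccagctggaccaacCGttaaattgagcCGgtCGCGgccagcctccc
Mael: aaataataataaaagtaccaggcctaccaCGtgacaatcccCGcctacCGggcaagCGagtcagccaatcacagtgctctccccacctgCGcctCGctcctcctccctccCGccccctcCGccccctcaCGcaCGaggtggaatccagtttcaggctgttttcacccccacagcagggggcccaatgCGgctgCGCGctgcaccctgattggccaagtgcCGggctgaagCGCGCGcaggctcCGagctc

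Promoters were matched by symbol for 8 of the 9 members, all except Piwil2. The 250 bases held 20 CpGs in Dazl, 12 in Sycp3, 17 in Sycp1 and 18 in Mael. The other matched members held 18 in Slc25a31, 15 in Asz1, 26 in Stag3 and 31 in Ddx4. For Ddx4, unlike the other matched members, the bases after the start matched no GENCODE transcript of the gene. The Stag3 window and much of the Ddx4 window lie inside the gene as counted. The CpG count, GC content and motifs of Ddx4 are therefore less certain as promoter values. The members' median was 18 CpGs, against a median of 6 over 32817 mouse promoters. CpG occurred at a median of 0.852 of the number that base composition alone would give in the members, against 0.373 in all promoters. The E-box CACGTG, which reads the same on both strands and is bound by complexes with Max, was found in 6 of the 8 members' promoters, 2 copies of it in Sycp3. It was found in 6.02% of all promoters and in 7.99% of the 14205 promoters within the members' range of GC content, 52.0% to 70.4%. Dazl and Asz1 held none in this window. The E2F motif GGCGGGA, searched on both strands, was found in Mael and Ddx4, 2 of the 8, against 9.75% of all promoters and 14.5% in the same GC range. These are letters in a window, and neither methylation nor factor binding was analysed here.

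**Figure D1:**
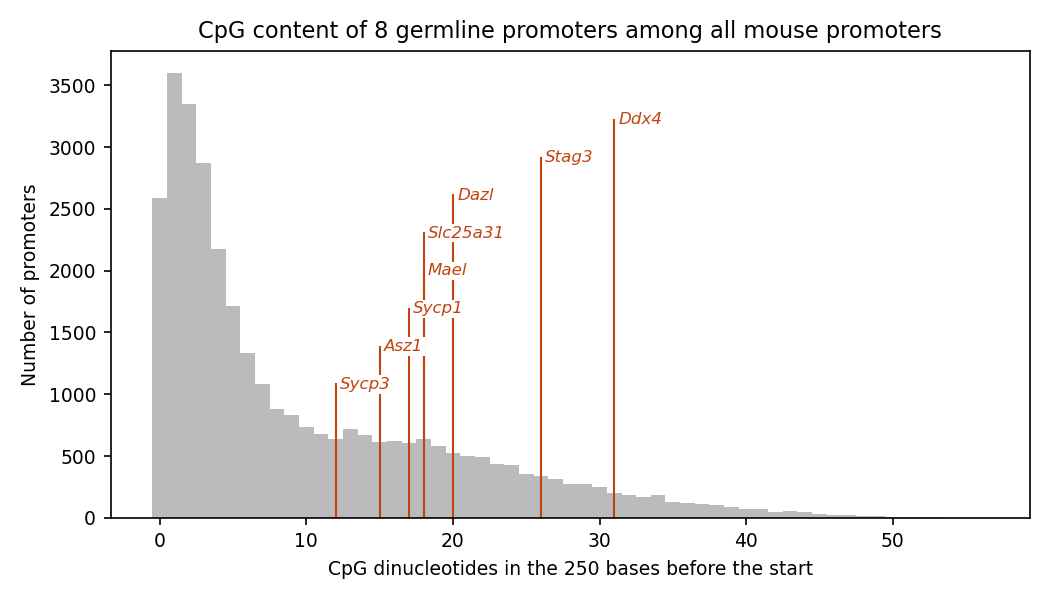
CpG dinucleotides in the 250 bases before the start (x axis) against the number of mouse promoters with that count (y axis, grey bars, 32817 promoters). Lines mark 8 germline genes, whose counts run from 12 in Sycp3 to 31 in Ddx4, all above the overall median of 6, and the heights of the lines carry no value. The start used for Ddx4 matched no GENCODE transcript, so its count is less certain.

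The 7 libraries held 14352719 to 29335803 counts each. The deletion libraries and the WT_EV libraries differed in RNA that lacks a poly(A) tail. The 70 replication-dependent histone genes took 0.00129% to 0.00686% of counts in the deletion libraries and 0.984% to 2.47% in the WT_EV libraries, and Rn7sk had 2 to 7 counts against 157188 to 255029. A difference in how RNA was selected and the genotype cannot be told apart. Of the 15331 genes tested, 72.3% passed the test in DXp and 66.8% in DXp_DXm against WT_EV. The test was the edgeR quasi-likelihood test at a Benjamini-Hochberg adjusted p under 0.05 over all genes tested. Of 10 XEN markers, 9 had at least 10 counts in every library. Col4a1, the exception, had 0 counts in DXp replicate 1 and 51355 in DXp replicate 2. The 10 summed to 7422 to 17099 CPM in DXp, 11217 to 14143 CPM in DXp_DXm and 21301 to 28859 CPM in WT_EV. Not every XEN marker followed the sum: Sox7 had 4669 and 4430 counts in DXp, 9739 and 4586 in DXp_DXm, and 1369, 2244 and 1529 in WT_EV. Under 10 counts in every library were 5 of 8 pluripotent markers, 6 of 7 fibroblast markers and 2 of 6 trophoblast markers. The trophoblast markers summed to 44.0 to 85.3 CPM in DXp, 88.1 to 91.4 CPM in DXp_DXm and 619 to 907 CPM in WT_EV. Most of that sum came from the keratins Krt8 and Krt18. Tfap2a went the other way, with 11 and 30 counts in DXp, 23 and 9 in DXp_DXm, and 0, 1 and 0 in WT_EV. Cdx2, Elf5 and Eomes had at most 46 counts in a library. The part of these differences in the results was not tested.

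The 9 genes were at or near 0 in all groups. Together they had 167 of 156315114 counts. Of the 63 values, 1 per gene and library, 33 were 0, and the highest was 19. In the DXp libraries 6 members had a count, in the DXp_DXm libraries 8 and in the WT_EV libraries 4. Their counts summed to 53 in DXp, 84 in DXp_DXm and 30 in WT_EV. Only Dazl, Sycp3 and Piwil2 reached 10 counts in any library. At this depth a level is read against a floor of 3 counts, the limit that a count of 0 allows, which over a whole group is 0.0660 CPM in DXp, 0.0605 CPM in DXp_DXm and 0.0516 CPM in WT_EV. CPM here is the count relative to the library total after TMM scaling, and floors and intervals cover counting error only. In such bulk samples a few cells with many transcripts and many cells with few cannot be told apart.

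**Figure D2:**
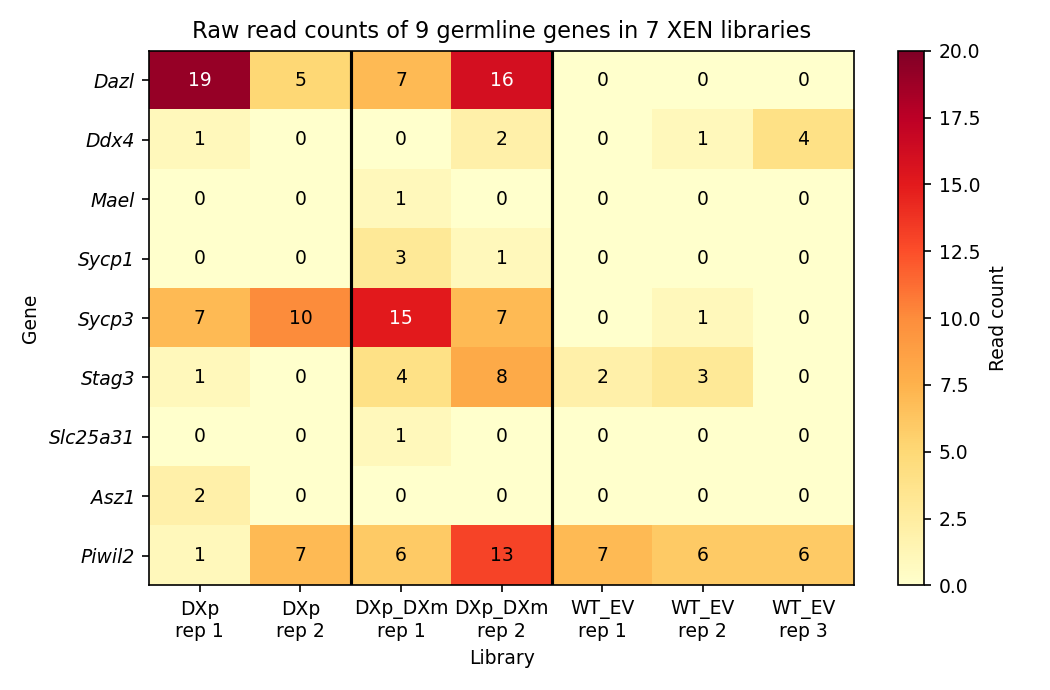
Raw read counts of the 9 germline genes (rows) in the 7 libraries (columns, grouped as DXp, DXp_DXm and WT_EV, with colour running from 0 to 20 counts). Dazl and Sycp3 have 5 to 19 counts in each of the 4 deletion libraries and 0 or 1 in the 3 WT_EV libraries, while most other entries are 0 to 4 counts.

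Dazl, an RNA-binding protein that controls translation in germ cells and is needed for them to commit to gametogenesis, was the member that passed the test. Its gene (ENSMUSG00000010592) lies on chromosome 17 at 50279395 to 50293636, on the minus strand of GRCm38. It had 19 and 5 counts in the DXp libraries, 7 and 16 in the DXp_DXm libraries, and 0 in each of the 3 WT_EV libraries. All 4 deletion libraries lay above all 3 WT_EV libraries, and the replicates within each deletion differed by more than 2-fold. The share of all genes that separate in this way was not counted, so nothing particular to Dazl is read from it. The level was 0.582 ± 0.550 CPM in DXp and 0.459 ± 0.239 CPM in DXp_DXm (SD, n = 2 each), and no reads were counted in WT_EV. Pooled over libraries it was 0.528 CPM in DXp (95% exact Poisson interval 0.338 to 0.785) and 0.464 CPM in DXp_DXm (0.294 to 0.696). In WT_EV the upper limit of the same interval was 0.0634 CPM.

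Against the floor of 3 counts over the WT_EV group, Dazl was at least 10.2-fold higher in DXp and at least 8.99-fold higher in DXp_DXm. The edgeR adjusted p was 0.00484 in DXp and 0.00737 in DXp_DXm, and DESeq2 gave 0.00197 and 0.00491. With offsets for GC content and length, which remove trends of each library's values with those properties, the edgeR adjusted p was 0.0327 in DXp and 0.0301 in DXp_DXm. The Dazl transcript is 37.0% GC. The level remained low: Dazl lay above 19.6% of tested genes in DXp and above 17.3% in DXp_DXm, where the median tested gene had 6.40 CPM and 7.08 CPM.

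Dazl and Piwil2 were the members with enough reads to pass the filter on low counts, so 2 of 9 were tested in that fit. Dazl, with 0 counts in WT_EV, met the filter only through the deletion libraries, so its direction was fixed once it entered. Dazl passed in each deletion and Piwil2 did not. Over all genes, 32.2% passed as higher and 40.1% as lower in DXp, and 30.9% as higher and 36.0% as lower in DXp_DXm. With the offsets the shares were 51.7% in DXp (24.9% higher, 26.7% lower) and 43.6% in DXp_DXm (21.9% higher, 21.7% lower). A call in either direction was therefore common among all genes, and nothing is read from the count of members called.

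Sycp3, which builds the axial element of the synaptonemal complex, had reads in the same libraries. It had 7 and 10 counts in DXp, 15 and 7 in DXp_DXm, and 0, 1 and 0 in WT_EV. The groups did not overlap: every deletion library had at least 7 counts and no WT_EV library more than 1. For Sycp3 too, the share of all genes that separate in this way was not counted. The level was 0.372 ± 0.0199 CPM in DXp, 0.448 ± 0.245 CPM in DXp_DXm and 0.0141 ± 0.0243 CPM in WT_EV (SD, n = 2, 2 and 3). The ratio of pooled levels was 21.7 in DXp (95% exact interval 3.41 to 909) and 25.8 in DXp_DXm (4.17 to 1065), a width set by the single WT_EV read. Sycp3 did not pass the filter on low counts. With no filter all 9 members could be fitted among 27732 genes, and Sycp3 was then higher by 4.07 on the log2 scale in DXp (SE 1.26, adjusted p = 0.00364) and by 4.33 in DXp_DXm (SE 1.23, adjusted p = 0.00157). In that fit 2 members passed in each deletion, Dazl and Sycp3, beside 43.1% of all genes in DXp and 39.5% in DXp_DXm. With the offsets as well, the Sycp3 change was 3.44 in DXp (adjusted p = 0.0246) and 3.98 in DXp_DXm (adjusted p = 0.00685).

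Reads of Sycp3 and of its neighbour cannot be told apart with certainty. Sycp3 (chromosome 10, 88459569 to 88473236, plus strand) lies inside Chpt1, a choline phosphotransferase gene on the minus strand, and 660 of its 1264 exonic bases, 52.2%, are exonic in Chpt1 too. The kits named in the labels keep strand, but the strand setting of the counting is not given in the sources used here. Chpt1 had 1164 and 1401 counts in DXp, 913 and 1324 in DXp_DXm, and 158, 200 and 90 in WT_EV. Chpt1 was thus higher in the same libraries, by 2.90 on the log2 scale in DXp (SE 0.30, edgeR adjusted p = 1.79e-05) and by 2.57 in DXp_DXm (SE 0.30, adjusted p = 5.27e-05). With the offsets these were 0.65 (adjusted p = 0.113) and 0.90 (adjusted p = 0.0439). Sycp3 made up 0.658% of the reads of both genes in DXp (95% exact binomial interval 0.384% to 1.05%), 0.974% in DXp_DXm (0.611% to 1.47%) and 0.223% in WT_EV (0.00564% to 1.23%). The intervals overlap, so a constant share of Chpt1 reads in all groups was not distinguishable at this depth. The part of Chpt1 in the Sycp3 counts was not tested. Dazl overlaps no annotated gene.

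**Figure D3:**
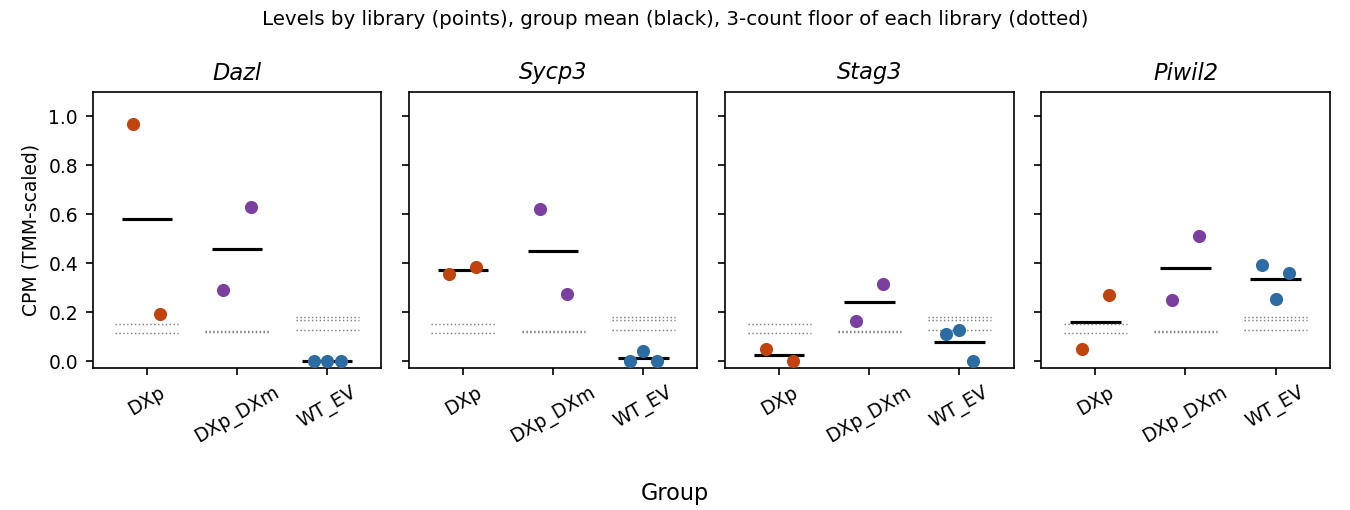
TMM-scaled CPM (y axis) of Dazl, Sycp3, Stag3 and Piwil2 in each library, by group (x axis, DXp, DXp_DXm and WT_EV), with the group mean as a black line and the 3-count floor of each library as dotted lines. Dazl and Sycp3 lie above the floors in all 4 deletion libraries and below them in all 3 WT_EV libraries, Stag3 lies above them only in DXp_DXm, and Piwil2 lies above them in WT_EV, in DXp_DXm and in 1 of 2 DXp libraries.

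The other meiotic members stayed near 0. Sycp1, the transverse filament that joins the axes of paired chromosomes, had 0 counts in both DXp libraries, 3 and 1 in the DXp_DXm libraries, and 0 in all WT_EV libraries. Its 4 reads in DXp_DXm were just over the floor, at least 1.56-fold above the WT_EV floor. Stag3, the meiosis-specific cohesin subunit, had 1 and 0 counts in DXp, 4 and 8 in DXp_DXm, and 2, 3 and 0 in WT_EV. Both DXp_DXm libraries had more Stag3 reads than any other library. The DXp_DXm to WT_EV ratio of Stag3 was 2.82 with a 95% exact interval of 0.923 to 10.2, and the DXp to WT_EV ratio was 0.256 (0.00541 to 2.29), so neither lay beyond counting error.

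Of the piRNA pathway members, Piwil2 was the best counted. Piwil2, a PIWI protein known as MILI, had 1 and 7 counts in DXp, 6 and 13 in DXp_DXm, and 7, 6 and 6 in WT_EV. The groups overlapped, and Piwil2 is the member with reads in every library, the wild type included. Its level was 0.161 ± 0.155 CPM in DXp, 0.379 ± 0.185 CPM in DXp_DXm and 0.335 ± 0.0734 CPM in WT_EV (SD, n = 2, 2 and 3). The log2 difference from WT_EV was -0.95 in DXp (SE 0.82, edgeR adjusted p = 0.311) and 0.19 in DXp_DXm (SE 0.74, adjusted p = 0.830). The DXp value was -2.56 without DXp replicate 2 and -0.18 without DXp replicate 1, and neither passed. The interval of the pooled ratio ran from 0.204 to 1.29 in DXp and from 0.588 to 2.34 in DXp_DXm.

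Ddx4, the germ cell RNA helicase also called Vasa, had 1 and 0 counts in DXp, 0 and 2 in DXp_DXm, and 0, 1 and 4 in WT_EV. The groups overlapped, and the 5 reads in WT_EV were mostly from replicate 3. Asz1, an ankyrin-repeat protein of the mitochondria-associated granules where piRNAs are made, had 2 and 0 counts in DXp and 0 in the other 5 libraries. Mael, needed for piRNA-directed silencing, had 1 count in DXp_DXm replicate 1 and 0 elsewhere. Slc25a31, the ADP/ATP carrier of the testis also called Ant4, likewise had 1 count in DXp_DXm replicate 1 and 0 elsewhere. For Asz1, Mael and Slc25a31 no group exceeded the floor of 3 counts, and no difference was detectable. In the separate WT_clone table Mael had 0 counts in both libraries and Slc25a31 had 1 and 0. Neither passed the filter, so these members gave no test against WT_clone.

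Per kilobase of transcript, Sycp3 stood first among the members in both deletions, at 0.296 CPM per kilobase in DXp and 0.351 in DXp_DXm, against 0.0136 in WT_EV. That place takes all reads counted for Sycp3 as its own, and the part of Chpt1 in them was not tested. Dazl came next with 0.138 in DXp and 0.121 in DXp_DXm. In WT_EV the order was led by Piwil2, at 0.0618 CPM per kilobase, which had 0.0333 in DXp and 0.0724 in DXp_DXm. Ddx4 followed in WT_EV at 0.0285, but its 5 reads do not separate it from Stag3 at 0.0150, and below these no member exceeded its floor.

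Between the deletions no tested member passed. Of 2 members tested, 0 passed the edgeR test between DXp_DXm and DXp, and 0 did so at an unadjusted p under 0.05. DESeq2 gave no adjusted p for either member, and its unadjusted p was 0.772 for Dazl and 0.422 for Piwil2. Over all genes 0.444% passed, or 0.235% with the offsets. The DXp_DXm to DXp ratio was 0.879 for Dazl (95% exact interval 0.474 to 1.63), 1.19 for Sycp3 (0.602 to 2.38) and 2.18 for Piwil2 (0.910 to 5.75). The Dazl adjusted p was 0.889, and that of Piwil2 was 0.469. Stag3 had 12 reads in DXp_DXm and 1 in DXp, a ratio of 11.0 with a counting interval of 1.63 to 470 that does not include spread between libraries. Without the filter its unadjusted p was 0.0435 and its adjusted p 0.307. In that fit 0 members passed the adjusted test and 5.18% of all genes did.

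Most germ cell markers were at or near 0 in the libraries with Dazl reads. Of 13 germ cell markers, 7 had 0 counts in all libraries, among them Dppa3, Nanos2, Figla, Nobox and Zp3, and 10 stayed under 10 counts in every library. Stra8, a marker of meiotic entry, had 1 count in each DXp_DXm library and 0 in the other 5. The summed level of the 13 was 254 to 893 CPM in DXp, 190 to 470 CPM in DXp_DXm and 244 to 291 CPM in WT_EV, most of it from Kit, a receptor that many somatic cells also carry. Zbtb16, another of the 13, was also well counted in every library. It had 302 and 663 counts in DXp, 232 and 275 in DXp_DXm, and 612, 1055 and 337 in WT_EV. Prdm1, which is used in primordial germ cells and in other lineages, had 10 and 1 counts in DXp and 0 in all other libraries.

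Germline genes outside the list were also mostly at low counts. Of 86 further germline genes in 3 lists, 26 (30.2%) had 0 counts in all 7 libraries, 30 (34.9%) had a highest count of 1 to 9, and 30 (34.9%) reached 10. Among 21897 protein-coding genes these shares were 25.7%, 18.1% and 56.2%. In the piRNA list 6 of 20 genes were tested, and 3 rose, 2 fell and 1 did not pass in DXp, while 2 rose, 0 fell and 4 did not pass in DXp_DXm. The median log2 difference of those tested was 0.96 in DXp and 0.74 in DXp_DXm, against medians over all tested genes of -0.35 and -0.15. With the offsets 3 rose and 1 fell in DXp, 2 rose and 0 fell in DXp_DXm, and the medians were 1.80 and 1.22. All list counts here stand beside the 72.3% of all genes called in DXp and 66.8% in DXp_DXm, or 51.7% and 43.6% with the offsets. Mybl1, the transcription factor that drives piRNA genes in meiosis, was at 195 ± 70.6 CPM in DXp, 107 ± 13.5 CPM in DXp_DXm and 13.9 ± 2.58 CPM in WT_EV. Mybl1 rose by 3.81 on the log2 scale in DXp (SE 0.30, edgeR adjusted p = 5.11e-06) and by 2.94 in DXp_DXm (SE 0.29, adjusted p = 2.27e-05), and by 1.74 and 1.49 with the offsets. Ddx25, a testis RNA helicase, rose by 2.75 in DXp (adjusted p = 0.00938) and 2.12 in DXp_DXm (adjusted p = 0.0338), calls that the offsets ended (adjusted p = 0.0575 and 0.182). Tdrd7, a germ granule Tudor protein, rose by 1.42 in DXp (adjusted p = 0.0146) and was 0.94 higher in DXp_DXm (adjusted p = 0.0826). Tdrd5, another Tudor protein, fell in DXp (-1.22, adjusted p = 0.0438) and was 0.53 higher in DXp_DXm (adjusted p = 0.320). Pnldc1, which trims piRNA ends, fell in DXp (-4.00, adjusted p = 0.00738), a call that the offsets ended (adjusted p = 0.0796), and had a difference of -0.67 in DXp_DXm (adjusted p = 0.467).

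Of the meiotic list, 30 of 31 symbols were in the table and 8 were tested. In DXp 2 rose, 2 fell and 4 did not pass, and in DXp_DXm 3 rose, 1 fell and 4 did not pass. The median log2 difference was -0.11 in DXp and 0.90 in DXp_DXm. The share called was thus 4 of 8 in each deletion, beside 72.3% and 66.8% of all genes. With the offsets 2 rose and 3 fell in DXp, 3 rose and 1 fell in DXp_DXm, and the medians were -0.32 and 0.57. Of all genes 51.7% in DXp and 43.6% in DXp_DXm were called with the offsets. Nothing is read from the share called among 8 tested genes. Prdm9, the histone methyltransferase that places meiotic recombination sites, was at 53.2 ± 3.81 CPM in DXp, 28.8 ± 0.0761 CPM in DXp_DXm and 10.6 ± 2.42 CPM in WT_EV. It rose by 2.32 in DXp (SE 0.28, adjusted p = 4.27e-05) and by 1.43 in DXp_DXm (SE 0.27, adjusted p = 0.00113), and by 1.83 and 0.88 with the offsets. Msh4, a mismatch-repair relative that acts at crossovers, fell in both deletions, with a log2 difference of -3.22 in DXp (SE 0.80, adjusted p = 0.00446) and an adjusted p of 0.00963 in DXp_DXm, or -4.45 and -3.80 with the offsets. It had 4 and 5 counts in DXp, 11 and 3 in DXp_DXm, and 44, 54 and 15 in WT_EV. Msh4 would not have met the filter on low counts without the WT_EV libraries, so its direction was largely fixed once it entered. Mlh3, a mismatch-repair protein of crossovers that somatic cells also use, rose by 1.74 in DXp and 1.52 in DXp_DXm, which became 0.25 (adjusted p = 0.415) and 0.27 (adjusted p = 0.412) with the offsets. Syce2, of the central element of the synaptonemal complex, was 0.38 higher in DXp (adjusted p = 0.490) and rose by 1.62 in DXp_DXm (adjusted p = 0.0121; 0.00957 with the offsets). Psmc3ip, the Mnd1 partner also called Hop2, fell in DXp (-2.10, adjusted p = 0.00387; 0.0356 with the offsets) and had a difference of -1.12 in DXp_DXm (adjusted p = 0.0610). Syce2 and Psmc3ip overlap a coding gene on the other strand.

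Among the other germ cell genes 12 of 36 were tested, of which 6 rose, 4 fell and 2 did not pass in DXp, and 6 rose, 5 fell and 1 did not pass in DXp_DXm. With the offsets 4 rose and 3 fell in DXp, and 3 rose and 2 fell in DXp_DXm. These counts too stand beside 72.3% and 66.8% of all genes called, or 51.7% and 43.6% with the offsets. The median log2 difference was 0.75 in DXp and 0.33 in DXp_DXm, or 0.14 and -0.09 with the offsets. Brdt, the testis bromodomain protein, had 282 and 319 counts in DXp, 117 and 184 in DXp_DXm, and 3, 11 and 23 in WT_EV. It rose by 4.33 in DXp (SE 0.65, adjusted p = 0.000203) and by 3.18 in DXp_DXm (SE 0.64, adjusted p = 0.00152), and by 3.29 and 2.24 with the offsets. Zcwpw1, a reader of the histone marks that Prdm9 sets, had 28 and 45 counts in DXp, 21 and 19 in DXp_DXm, and 1, 2 and 1 in WT_EV. It rose by 4.43 in DXp (adjusted p = 0.000147) and by 3.46 in DXp_DXm (adjusted p = 0.00103), and by 2.72 and 2.11 with the offsets. Zcwpw1 overlaps Pilra on the other strand. It met the filter on low counts only through the deletion libraries, so its direction was fixed once it entered. Ythdc2, an RNA helicase needed for meiosis, rose by 2.58 in DXp and 1.76 in DXp_DXm, or by 0.65 (adjusted p = 0.0249) and 0.23 (adjusted p = 0.383, no longer a call) with the offsets. Hells, a chromatin remodeller that supports DNA methylation, rose by 2.66 in DXp and 2.56 in DXp_DXm, which became 0.45 (adjusted p = 0.182) and 0.99 (adjusted p = 0.0151) with the offsets. Between DXp_DXm and DXp, 0 of the tested genes of these 3 lists passed the edgeR test. DESeq2 called 1 piRNA gene, 1 meiotic gene and 2 other germ cell genes there, and edgeR with no filter called 1 piRNA gene and 1 meiotic gene.

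Genes listed as repressors of germline genes were mostly well counted. Whether they silence the members in these cells was not tested. Of 25 listed repressors 24 were tested. In DXp 9 rose, 13 fell and 2 did not pass, where 72.3% of all genes passed. In DXp_DXm 7 rose, 13 fell and 4 did not pass, where 66.8% of all genes passed. With the offsets 5 rose and 10 fell in DXp, and 3 rose and 11 fell in DXp_DXm, beside 51.7% and 43.6% of all genes. The median log2 difference was -0.92 in DXp and -0.83 in DXp_DXm, or -0.39 and -0.69 with the offsets, where the medians over all tested genes were -0.08 and 0.02.

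Dnmt1, Uhrf1 and Dnmt3b, genes of DNA methylation, were lower in both deletions. Dnmt1, which copies methylation at replication, was at 49.2 ± 7.70 CPM in DXp, 73.5 ± 4.67 CPM in DXp_DXm and 400 ± 33.9 CPM in WT_EV. Its log2 difference was -3.02 in DXp (SE 0.25, adjusted p = 6.00e-06) and -2.44 in DXp_DXm (SE 0.24, adjusted p = 2.22e-05). With the offsets it was -1.46 in DXp (adjusted p = 0.00104) and kept its sign and its call in DXp_DXm (adjusted p = 0.00534). Uhrf1, which brings Dnmt1 to newly copied DNA, fell, with log2 differences of -3.38 in DXp and -2.24 in DXp_DXm, or -1.58 and -0.77 with the offsets. Dnmt3b, which sets new methylation, fell, with log2 differences of -4.01 in DXp and -2.56 in DXp_DXm, or -2.52 and -1.34 with the offsets. Dnmt3a, its relative, did not follow: it rose by 1.91 in DXp (SE 0.37, adjusted p = 0.000985) and was 0.08 higher in DXp_DXm (adjusted p = 0.856). Dnmt3l, their cofactor, had 6 and 3 counts in DXp, 3 and 8 in DXp_DXm, and 28, 63 and 13 in WT_EV, and its calls ended with the offsets (adjusted p = 0.292 in DXp and 0.196 in DXp_DXm). Dnmt3l met the filter on low counts only through the WT_EV libraries, so its direction was fixed once it entered.

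The complex that reads the E-box and E2F motifs did not all move one way. E2f6, its DNA-binding E2F subunit, rose by 0.87 in DXp (SE 0.25, adjusted p = 0.00992) and was 0.52 higher in DXp_DXm (SE 0.25, adjusted p = 0.0922). Max had a log2 difference of -0.50 in DXp (adjusted p = 0.131) and fell in DXp_DXm (-0.88, adjusted p = 0.0188), a call that the offsets ended (adjusted p = 0.0919). Mga, its partner, rose by 2.16 and 1.77, which became 0.15 (adjusted p = 0.562) and 0.23 (adjusted p = 0.392) with the offsets. Pcgf6, the subunit that marks this form of polycomb complex, rose by 1.12 and 1.46, and these calls too ended with the offsets (adjusted p = 0.920 and 0.419). L3mbtl2, a chromatin-compacting subunit, was at 4.98 ± 0.323 CPM in DXp, 5.61 ± 0.726 CPM in DXp_DXm and 87.4 ± 15.9 CPM in WT_EV. It fell, with log2 differences of -4.13 in DXp (SE 0.31, adjusted p = 4.77e-06) and -3.96 in DXp_DXm (SE 0.31, adjusted p = 9.20e-06), or -2.22 and -2.25 with the offsets. Ehmt2, the H3K9 methyltransferase G9a, fell, with log2 differences of -5.09 in DXp and -4.21 in DXp_DXm, or -1.89 and -1.03 with the offsets. Trim28, the corepressor KAP1, fell, with -4.73 in DXp and -4.00 in DXp_DXm, or -1.47 and -0.82 with the offsets. The transcripts of Ehmt2 and Trim28 are 60.8% and 59.6% GC and that of Mga is 42.2% GC. L3mbtl2, Trim28, Dnmt3l and Rnf2 overlap a coding gene on the other strand, so their counts are less certain.

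**Figure D4:**
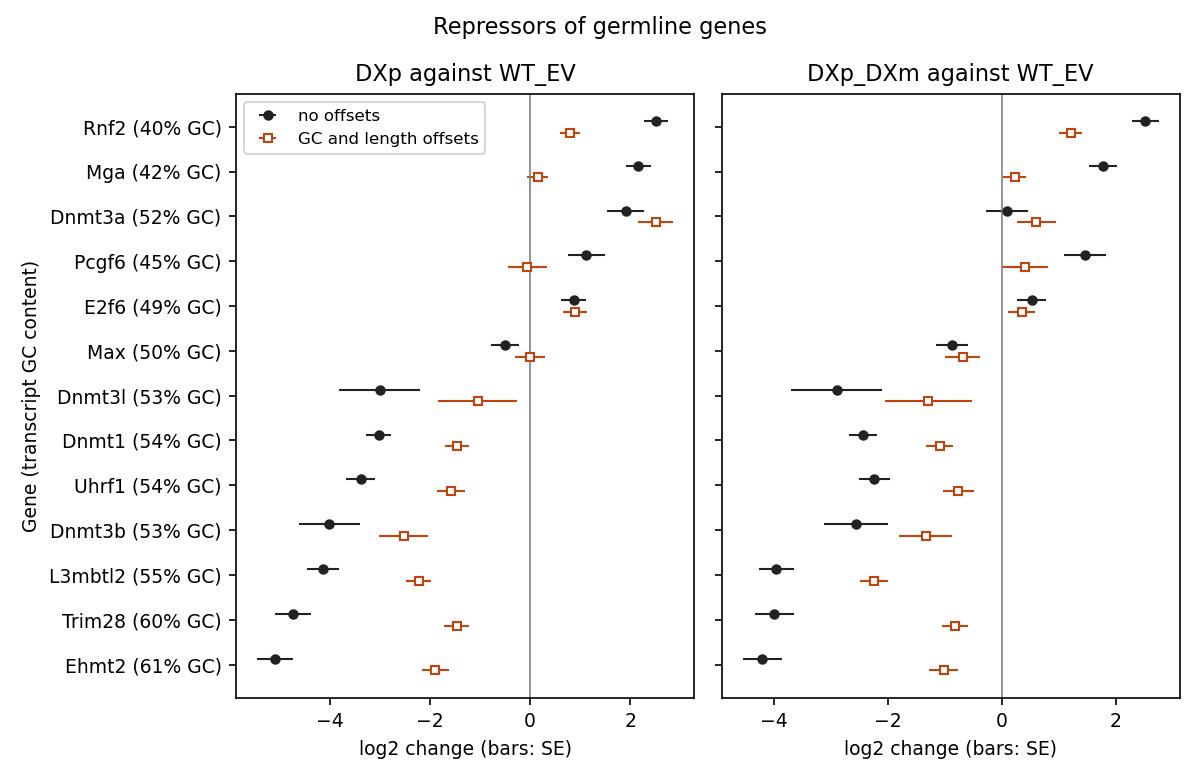
Log2 difference from WT_EV (x axis, bars show the SE) of 13 repressors of germline genes (rows, with transcript GC content) in DXp (left) and DXp_DXm (right), from the edgeR fit without offsets (black circles) and with GC and length offsets (open squares). Ehmt2, Trim28, L3mbtl2, Dnmt3b, Uhrf1 and Dnmt1 lie below 0 in both deletions and both fits, while Mga and Pcgf6 move to near 0 with the offsets in DXp.

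The second wild type could be read for named genes in the part of its table held here. In a fit of all 9 libraries over 3302 shared genes, 40.2% passed in DXp against WT_clone, 25.0% in DXp_DXm against WT_clone and 30.6% in WT_clone against WT_EV. Rnf2, the polycomb ubiquitin ligase, rose by 2.52 in both deletions against WT_EV, or by 0.80 in DXp and 1.21 in DXp_DXm with the offsets. Against WT_clone it was 0.35 higher in DXp (adjusted p = 0.435) and 0.32 higher in DXp_DXm (adjusted p = 0.520), and it rose by 1.79 in WT_clone against WT_EV (adjusted p = 0.00372). Dnmt3b fell in DXp against WT_clone (log2 difference -2.74, adjusted p = 0.0104), a call that the offsets ended (-1.11, adjusted p = 0.234). Its difference was -1.34 in DXp_DXm against WT_clone (adjusted p = 0.160) and -1.64 in WT_clone against WT_EV (adjusted p = 0.0676). Mybl1 rose by 1.47 in DXp against WT_clone (adjusted p = 0.0330), which became 0.20 (adjusted p = 0.825) with the offsets. It was 0.58 higher in DXp_DXm (adjusted p = 0.405), and it rose by 1.96 in WT_clone against WT_EV (adjusted p = 0.00868; 0.0171 with the offsets). The wild types thus differed from each other in Rnf2 and Mybl1, in the direction of the deletion lines. In that direction too, WT_clone differed from WT_EV in Mga (0.90, edgeR adjusted p = 0.0330), Stag2 (1.05, 0.0292), Ddx3x (0.94, 0.0200) and Slc25a5 (-1.11, 0.0356). Of these, Stag2 alone kept its call with the offsets (adjusted p = 0.0386). Tdrd5 did not pass in WT_clone against WT_EV (1.37, adjusted p = 0.124). It fell in DXp against WT_clone (log2 difference -2.97, edgeR adjusted p = 0.0114), and kept that call with the offsets (-2.59, adjusted p = 0.0437). In DXp_DXm against WT_clone the Tdrd5 difference was -1.24 (adjusted p = 0.233). Against WT_clone, Ddx3x and Slc25a5 passed in neither deletion, and Mga and Stag2 passed in DXp only. With the offsets these calls of Mga and Stag2 ended (adjusted p = 0.773 and 0.710).

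The somatic relatives of the members gave the scale of a gene in use. Stag2 and Stag1, the cohesin subunits that Stag3 replaces in meiosis, are expressed in all libraries. Stag2 was at 94.4 CPM per kilobase in DXp, 63.6 in DXp_DXm and 12.4 in WT_EV. Stag3 itself was at 0.00383 CPM per kilobase in DXp, 0.0422 in DXp_DXm and 0.0150 in WT_EV. Slc25a4 and Slc25a5, the somatic ADP/ATP carriers beside Slc25a31, were at 139 and 53.8 CPM per kilobase in DXp, 156 and 93.6 in DXp_DXm, and 235 and 165 in WT_EV. Ddx3x, a helicase related to Ddx4, was at 573 in DXp, 492 in DXp_DXm and 171 in WT_EV. Against these, the Dazl and Sycp3 levels in the deletion lines remained near the limit of detection.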

How the data were processed

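Per the submitters' processing notes, reads were checked with FastQC, aligned to GRCm38 (mm10) by STAR 2.7.9a, and reads per gene were obtained from featureCounts 2.0.1, and the values are the raw read counts per gene as deposited by the authors. The strand setting is not given in the sources used here. Symbols came from GENCODE M21, and 54821 of 55401 genes had the same start and end there. Of the WT_clone table, 11512 genes were used here.

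Counts were filtered with filterByExpr (minimum count 10), given TMM factors and fitted in edgeR 4.0.16 (R 4.3.3, robust quasi-likelihood F test), group as the model term, all 3 groups in 1 fit, Benjamini-Hochberg over all 15331 genes tested, adjusted p under 0.05. The SE is derived from the log2 change and its F statistic. Offsets were natural splines (df 5) of each library's log-CPM deviations (prior count 2) on GC content and log2 length. DESeq2 1.42.0, other filters and left-out libraries were alternatives. The test was tested on simulated data. Only genes with higher counts than the members were changed there, so the simulation does not check the member calls. The biological coefficient of variation was 33.7%.

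The members and lists were chosen with earlier results of these data known. Named genes are all members, fixed repressors (E2f6, Mga, Max, L3mbtl2, Pcgf6 and the DNA methylation genes), and the 4 tested genes of each list with the lowest p in each deletion against WT_EV. Genes outside this rule are said to be so where they are named, apart from genes used as markers, neighbours or relatives of members. The XEN, fibroblast, pluripotent, trophoblast and germ cell markers served to check the cells.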

Additional observations from a re-analysis of the deposited data

How the results depend on the processing

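Dazl passed the test in DXp and in DXp_DXm against WT_EV under every alternative in which it was tested, with adjusted p of 2.82e-05 to 0.0407 in DXp and 9.79e-05 to 0.0430 in DXp_DXm. A filter of at least 1 CPM in 2 libraries left no member to test. The number of members called in DXp and in DXp_DXm was 2 with no filter, since Sycp3 was then tested, and 1 to 2 when 1 library was left out. Sycp3 met the filter without DXp replicate 1, DXp replicate 2 or DXp_DXm replicate 2. It did so through the deletion libraries, so its direction there was fixed. The same holds for Dazl in every filtered fit, since no reads were counted in WT_EV. Its calls there are not independent support for the direction. Without the filter, Sycp3 passed with adjusted p of 0.00333 to 0.0273 in DXp and 0.00147 to 0.0385 in DXp_DXm over offsets and left-out libraries, alternatives chosen after seeing the data. No member held in the WT_clone table passed the filter, so those comparisons gave no value.

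The Dazl difference between DXp_DXm and DXp changed sign with the offsets (0.27) and ran from -1.07 to 1.21 with 1 library left out. The Piwil2 difference between DXp_DXm and WT_EV ran from -0.40 to 0.69 in the same way. Over all genes, DXp_DXm against WT_EV gave 6673 calls with the offsets, against 10243. DXp_DXm against DXp gave 68 calls, 1181 with DESeq2, 1436 with no filter, 36 with the offsets, and 2 to 480 with 1 library left out (2 without DXp replicate 2, 480 without WT_EV replicate 3). The cause was not tested. DESeq2 scaling moved the median over all genes by 0.15 in DXp.

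Libraries with the same number after rep did not deviate together (correlations of -0.20 to 0.057). In a group of 2 libraries the deviations mirror each other, so these correlations cannot decide whether the number pairs libraries. The replicate block gave 10638 calls in DXp, 9668 in DXp_DXm and 92 between the deletions, and no member changed its call. With the other number in the DXp titles, chosen after seeing the data, the block gave 1573 calls between the deletions, 0 of them members. The correlation between DXp_DXm and DXp was then 0.20, which is the same value with its sign reversed by construction.

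Depth limits the members: 6 of 9 had under 10 counts in every library.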

Other observations

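The genes of this paragraph were chosen after their values were seen. Zp1, a protein of the egg coat, had 0 counts in all 4 deletion libraries and 27, 45 and 4 counts in WT_EV. Against the floor of 3 counts over each deletion group, Zp1 was at least 19.8-fold lower in DXp and at least 21.6-fold lower in DXp_DXm (edgeR adjusted p = 0.00351 and 0.00361, or 0.0490 and 0.0389 with the offsets). Tex19.1, a germline gene that is also used in the placenta, had 0 and 1 counts in DXp, 0 in both DXp_DXm libraries, and 9, 13 and 9 in WT_EV (adjusted p = 0.00443 and 0.00184, or 0.0713 and 0.0149 with the offsets). Gdf9, an oocyte growth factor, fell to 0.706 ± 0.420 CPM in DXp and 1.33 ± 0.821 CPM in DXp_DXm, against 12.0 ± 7.42 CPM in WT_EV (adjusted p = 0.000669 and 0.00242, or 0.0247 and 0.0638 with the offsets). Zp1, Tex19.1 and Gdf9 had reads in all 3 WT_EV libraries, where Dazl had none. Taf7l, a testis form of a general transcription factor subunit, had 12 and 10 counts in DXp, 4 and 17 in DXp_DXm, and 2, 0 and 0 in WT_EV (adjusted p = 0.0158 and 0.0245, or 0.0667 and 0.0936 with the offsets). Spata22, a meiotic recombination protein, had 14 and 4 counts in DXp, 6 and 9 in DXp_DXm, and 0 in all WT_EV libraries, which is the pattern of Dazl. Spata22 did not pass the filter on low counts. Taf7l met that filter only through the deletion libraries, and Zp1 and Tex19.1 only through the WT_EV libraries. The direction of Taf7l, Zp1 and Tex19.1 was thus fixed once they entered.

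Mnd1, which acts with Dmc1 in strand exchange in meiosis, differed widely between libraries of the same group. Mnd1 too was chosen after its values were seen. It had 0 counts in both DXp libraries, 102 and 271 in the DXp_DXm libraries, and 0, 74 and 0 in the WT_EV libraries. The WT_clone libraries had 11 and 216 counts. Mnd1 did not pass the test in DXp (adjusted p = 0.0753) or in DXp_DXm (adjusted p = 0.146). WT_EV replicate 2 stood apart from the other WT_EV libraries, and the cause was not tested.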
